A study of Homo sapiens with 12 samples.

Results

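The genes described here are 10 members of the AP-1 and immediate early group, namely FOS, FOSB, FOSL1, FOSL2, JUN, JUNB, JUND, EGR1, IER2 and IER3. They were taken by symbol from a table of 44659 genes, and every member was listed once under its own symbol. They were measured by RNA sequencing in A375, a human skin melanoma cell line, in 4 groups of 3 libraries. All cells were grown in DMEM and all RNA came from the cytoplasmic fraction. Control cells (CC) were kept in DMSO, the solvent, over 72 h. Treated cells (TC) spent 72 h in the inhibitors vemurafenib (against BRAF, 500 nM) and cobimetinib (against MEK, 500 nM), called MAPKi below, and were harvested at once. Persister cells (PC) had the same treatment followed by 2 days without drug, and recovered cells (RC) had it followed by 9 days without drug. DMSO cells were harvested only at the end of treatment, so time in culture and time without drug cannot be told apart in PC and RC. All groups came from 1 line, and nothing says whether the 3 libraries of a group came from separate cultures, so p-values measure the spread between these libraries.

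AP-1 is a transcription factor made of a pair of basic leucine zipper proteins. JUN family proteins (JUN, JUNB, JUND) pair with each other or with FOS family proteins (FOS, FOSB, FOSL1, FOSL2), and FOS family proteins need a JUN partner. Immediate early genes are transcribed within minutes of a growth signal without new protein synthesis, and in melanoma cells with active BRAF much of that signal runs through MEK and ERK to serum response factor and its ETS partners. EGR1 encodes a zinc finger transcription factor, IER2 a nuclear regulator of transcription and IER3 a stress-inducible regulator of survival. The earliest library here followed 72 h of treatment, so the rapid induction that gives the group its name was not measured.

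Known regulatory letters stand just before the start sites of JUN, JUND and EGR1, and these 3 stretches are printed because they hold the matches found in the set. Each is the 250 bases before the RefSeq start (assembly GRCh38.p14), 5′ to 3′ on the gene's strand, with the matched letters in capitals. RefSeq promoter entries were matched for 8 of the 10 members, and FOSL1 and IER3 had no entry. The stretches lie at chr1:58784048-58784297 (minus strand) for JUN, chr5:138465229-138465478 (plus strand) for EGR1 and chr19:18281623-18281872 (minus strand) for JUND.
JUN: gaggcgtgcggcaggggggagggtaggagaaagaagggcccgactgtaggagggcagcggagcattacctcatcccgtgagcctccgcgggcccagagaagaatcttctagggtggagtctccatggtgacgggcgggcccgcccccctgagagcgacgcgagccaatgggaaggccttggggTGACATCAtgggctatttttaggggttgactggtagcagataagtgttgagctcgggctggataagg
EGR1: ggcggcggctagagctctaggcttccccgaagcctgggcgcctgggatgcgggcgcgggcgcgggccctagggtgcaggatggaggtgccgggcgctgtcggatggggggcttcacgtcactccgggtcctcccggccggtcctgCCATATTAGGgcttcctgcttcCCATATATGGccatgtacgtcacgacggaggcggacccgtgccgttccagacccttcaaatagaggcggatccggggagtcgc
JUND: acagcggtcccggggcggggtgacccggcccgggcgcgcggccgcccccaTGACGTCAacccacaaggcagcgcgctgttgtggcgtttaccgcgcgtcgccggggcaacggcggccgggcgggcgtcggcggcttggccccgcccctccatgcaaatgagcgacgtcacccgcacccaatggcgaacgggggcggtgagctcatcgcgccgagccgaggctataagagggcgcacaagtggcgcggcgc

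In JUN the capitals mark TGACATCA, a site like the AP-1 element, 67 to 60 bases before the start. In EGR1 they mark 2 CArG boxes, the element that serum response factor binds, at 105 to 96 and 83 to 74 bases before the start. In JUND they mark TGACGTCA, the cyclic AMP response element, 200 to 193 bases before the start. Both strands were searched, and none of the matches overlapped another. TGACATCA was found in 2.37% of 35116 promoters of the same length, a CArG box in 1.16% and TGACGTCA in 1.65%. The AP-1 element TGACTCA was found in 4.2% of promoters and the ETS element CCGGAAGT in 3.42%, and neither was found in these windows of the 8 matched members. A match describes the letters only.

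Depth was similar in all groups, with total counts of 37773389 to 55567097 per library and 20591 to 22363 genes detected. A count of 3 was 0.0785 CPM (counts relative to the TMM-scaled library total) at the lowest depth, for counting error only. A gene was tested at a mean scaled count of at least 10, which kept 15916 genes and 9 of the 10 members. The libraries carried the melanocyte lineage, with 7 markers at a summed 1526 to 10285 CPM, while the summed keratinocyte or endothelial markers stayed at or below 5.23 CPM. The library labelled CC replicate 3 stood apart for several members. It lay more than 2-fold above both other CC libraries in 4 of the 9 tested members (FOSB, FOSL1, EGR1 and IER2), against 269 (1.69%) of the tested genes. Among 23 other tested immediate early genes it did so in 7, including EGR3 and NR4A1, and in 0 of 12 AP-1 dimer partners. In each of the other 11 libraries no member lay more than 2-fold above or below both others of its group. Of all tested genes, 147 to 224 lay above and 144 to 260 below in those libraries. In CC replicate 3, 427 tested genes lay below both others, the most of any library, and 0 of them were members. Every comparison was therefore also fitted without this library, since all groups share the spread of a single fit. For the lists below this alternative was chosen after the data were seen, and the reason for the levels of this library was not tested.

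**Figure D1:**
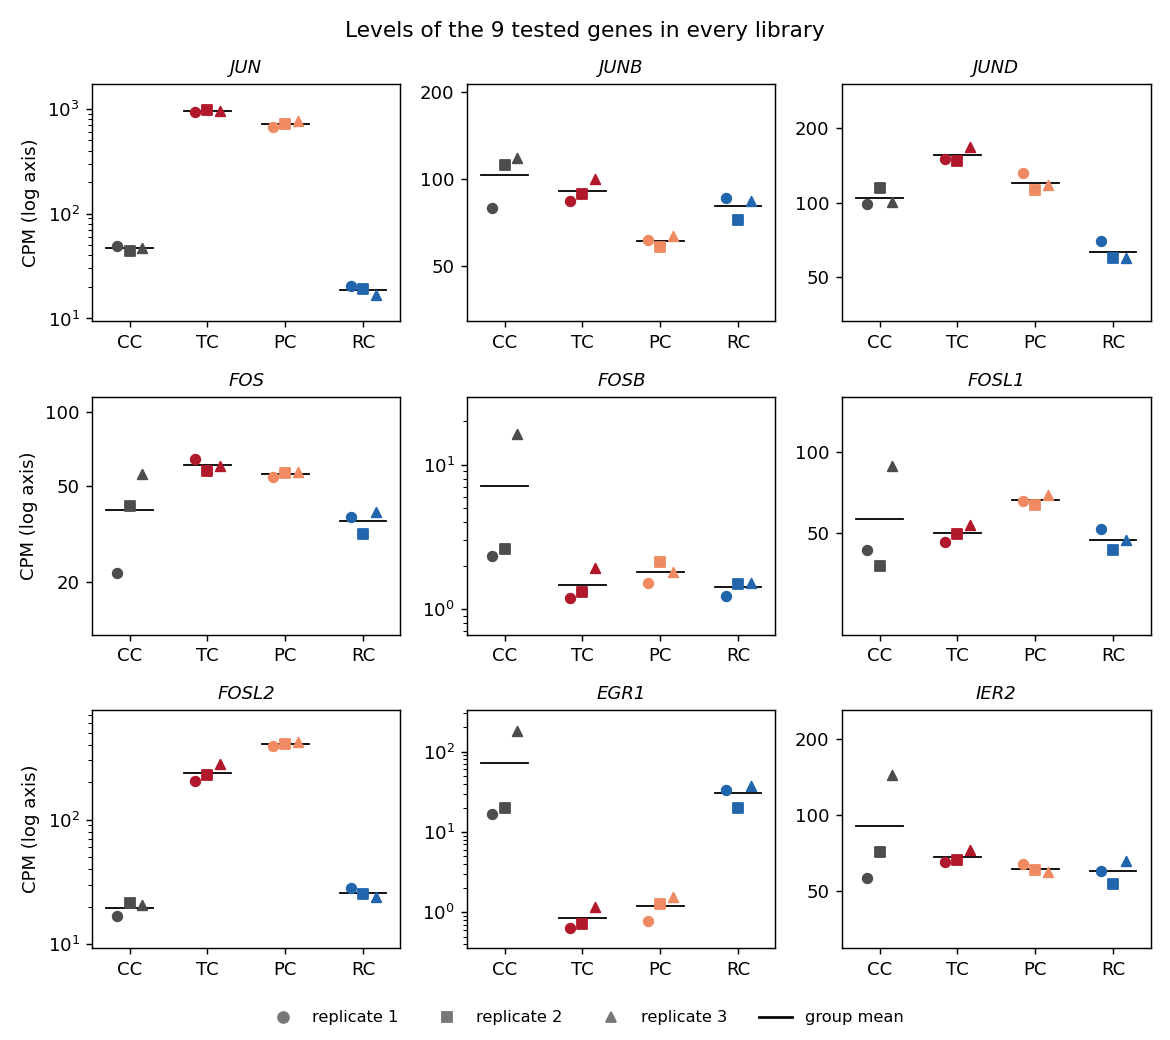
CPM on a log axis for the 9 tested members in each of the 12 libraries, with a symbol per replicate and a line at the group mean; scales differ between panels. JUN and FOSL2 stand high in all TC and PC libraries, EGR1 stands near 1 CPM there, and CC replicate 3 stands above the other CC libraries for FOSB, FOSL1, EGR1 and IER2.

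JUN and FOSL2 were the members with large increases under MAPKi, and EGR1 was the member with the largest decrease. JUN encodes the founding AP-1 subunit, which amplifies its own transcription, and lies at chromosome 1, 58776845 to 58784048, on the minus strand (GRCh38, GENCODE v44, as for all genes here). It measured 48.9, 44 and 47.3 CPM in the CC libraries, replicates 1 to 3 in order here and below. In TC it measured 936, 968 and 953 CPM, in PC 676, 717 and 765 CPM, and in RC 20.6, 19.0 and 16.8 CPM. The groups did not overlap anywhere, and RC lay below CC. Differences between groups are given from here on as fitted log2 fold changes, and levels as CPM. The log2 fold change of JUN was 4.35 in TC over CC (SE 0.0866, edgeR adjusted p = 8.17e-12) and 3.94 in PC over CC (SE 0.0850, adjusted p = 1.39e-11). Between TC and PC it fell by 0.40 (SE 0.0751, adjusted p = 0.00213). From PC to RC it fell by 5.26 (SE 0.0910, adjusted p = 3.77e-12), the largest change of any member in any comparison except the EGR1 changes in TC and PC. In RC its value against CC was -1.31 (SE 0.0795, adjusted p = 2.2e-06), and this fall also passed the test beyond 1.5-fold (adjusted p = 7.26e-05). Leaving out CC replicate 3 gave 4.37 in TC, 3.97 in PC and -1.30 in RC against CC. These values cannot tell fewer cells that carry the transcript from less transcript per cell, here or for any gene below.

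FOSL2 encodes FRA-2, a FOS family subunit that lacks the strong activation domain of FOS, and lies at chromosome 2, 28392448 to 28417317, on the plus strand. It measured 16.7, 21.2 and 20.7 CPM in CC and 204, 231 and 280 CPM in TC. In PC it went on to 394, 408 and 422 CPM, and in RC it was back at 28.2, 25.4 and 23.8 CPM. No library of any group overlapped another group. FOSL2 rose in TC by 3.60 (log2, SE 0.13, adjusted p = 4.17e-10) and in PC by 4.38 (SE 0.134, adjusted p = 1.25e-10). Unlike JUN, it was higher in PC than in TC, by 0.78 (SE 0.116, adjusted p = 0.000494). From PC to RC it fell by 3.98 (SE 0.131, adjusted p = 2.52e-10). In RC it stayed above CC by 0.40 (SE 0.121, adjusted p = 0.0225), and without CC replicate 3 its values were 3.65 in TC, 4.44 in PC and 0.45 in RC. The RC call was lost without CC replicate 1 (adjusted p = 0.0905), RC replicate 1 (0.0819) or RC replicate 2 (0.0505).

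EGR1 lies at chromosome 5, 138465479 to 138469303, on the plus strand, and is a direct output of ERK signalling. Its CC libraries measured 16.9, 19.7 and 182 CPM. In TC it measured 0.648, 0.715 and 1.18 CPM, which rested on 25 to 63 counts. In PC it measured 0.785, 1.28 and 1.57 CPM, on 30 to 68 counts, and in RC 33.4, 20.04 and 37.8 CPM. Every TC and PC library lay below every CC and RC library, while the RC libraries lay inside the span of CC. EGR1 changed by -6.39 in TC (log2, SE 0.954, adjusted p = 7.52e-05) and by -5.89 in PC (SE 0.920, adjusted p = 0.000102). Without CC replicate 3 its log2 fold change was -4.39 in TC (SE 0.331, adjusted p = 5.04e-07) and -3.89 in PC (SE 0.321, adjusted p = 9.73e-07). Between PC and TC the log2 fold change was 0.49 (SE 1.05, adjusted p = 0.779). From PC to RC EGR1 rose by 4.63 (SE 0.890, adjusted p = 0.000527). CC replicate 3 widened the spread of these 2 comparisons as well, since all groups share a fit. Without it the PC against TC value was 0.50 (SE 0.339, adjusted p = 0.289). The rise from PC to RC was then 4.63 (SE 0.313, adjusted p = 1.47e-07). Its RC against CC value was -1.26 with all libraries (SE 0.707, adjusted p = 0.182) and 0.74 without CC replicate 3 (SE 0.292, adjusted p = 0.0641), so its direction in RC turned on that library.

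FOSB, which encodes a FOS family subunit known for rapid and transient induction, had the lowest group mean of the tested members per exon length in every group, close to EGR1 in TC and PC. It lies at chromosome 19, 45467995 to 45475179, on the plus strand. Its libraries measured 2.32, 2.60 and 16.4 CPM in CC, 1.19, 1.30 and 1.92 CPM in TC, 1.52, 2.11 and 1.8 CPM in PC, and 1.23, 1.5 and 1.51 CPM in RC. All 9 libraries outside CC lay below all CC libraries. FOSB had a log2 change of -2.26 in TC (SE 0.618, adjusted p = 0.00609), -1.97 in PC (SE 0.610, adjusted p = 0.0122) and -2.33 in RC (SE 0.618, adjusted p = 0.0114). Without CC replicate 3 the values shrank to -0.73 in TC (SE 0.236, adjusted p = 0.0174), -0.43 in PC (adjusted p = 0.127) and -0.79 in RC (SE 0.236, adjusted p = 0.0204). The PC call was thus lost and the TC call no longer passed beyond 1.5-fold (adjusted p = 0.253).

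FOS, the founding FOS family gene, at chromosome 14, 75278826 to 75282230, on the plus strand, did not follow EGR1. It measured 21.9, 41.2 and 56.0 CPM in CC, 64.3, 57.4 and 60.2 CPM in TC, 54.0, 56.5 and 56.8 CPM in PC, and 37.1, 31.5 and 38.8 CPM in RC. TC lay above CC in every library, and PC overlapped CC. The rise in TC was 0.61 (log2, SE 0.235, adjusted p = 0.0362). That call was lost without CC replicate 2, without any 1 of the TC replicates, or when only CC and TC were fitted, with adjusted p of 0.0558 to 0.0935, and the value was 0.95 without CC replicate 3 (adjusted p = 0.00149) and 0.32 without CC replicate 1. In PC against CC the log2 fold change was 0.49 (adjusted p = 0.0824) with all libraries, 0.83 (adjusted p = 0.00327) without CC replicate 3 and 0.20 (adjusted p = 0.178) without CC replicate 1. In RC against CC it was -0.15 (adjusted p = 0.653), and -0.44 (adjusted p = 0.0204) without CC replicate 1. From PC to RC FOS fell by 0.64 (SE 0.236, adjusted p = 0.0286), a call lost without any 1 of the PC replicates or without RC replicate 1 or 2, with adjusted p of 0.0505 to 0.0917.

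FOSL1 encodes FRA-1, a FOS family subunit stabilised by ERK and prominent in invasive melanoma cells, and lies at chromosome 11, 65892049 to 65900573, on the minus strand. It measured 43.4, 38.0 and 88.6 CPM in CC, 46.6, 49.9 and 53.9 CPM in TC, 66.0, 63.4 and 69.2 CPM in PC, and 51.8, 43.3 and 47.1 CPM in RC. The CC libraries spanned all others. With all libraries FOSL1 passed no comparison, and its log2 fold change was -0.18 in TC (adjusted p = 0.531) and 0.22 in PC (adjusted p = 0.421). Without CC replicate 3 it was 0.31 in TC (SE 0.0891, adjusted p = 0.00947) and 0.72 in PC (SE 0.0899, adjusted p = 2.84e-05). FOSL1 passed as higher in PC than in TC without that library (0.41, adjusted p = 0.00288) and when only these 2 groups were fitted (adjusted p = 0.00334). It passed as lower in RC than in PC without that library (-0.49, adjusted p = 0.00017), without CC replicate 2 (adjusted p = 0.0455) and when only these groups were fitted (adjusted p = 0.000242).

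JUNB and JUND, the other JUN family subunits, had smaller changes. JUND, at chromosome 19, 18279694 to 18281622, on the minus strand, measured 98.6, 115 and 100 CPM in CC, 150, 148 and 169 CPM in TC, 132, 112 and 118 CPM in PC, and 69.8, 59.4 and 59.9 CPM in RC. TC lay above CC, and RC below every other group, without overlap. JUND rose by 0.57 in TC (SE 0.0920, adjusted p = 0.000143), and its value in PC against CC was 0.21 (adjusted p = 0.0643), which passed in 5 of 19 alternatives, namely without CC replicate 2, PC replicate 2 or RC replicate 1, with DESeq2 and with its size factors (adjusted p of 0.0203 to 0.0471). Its values without CC replicate 3 were 0.55 in TC, 0.19 in PC and -0.76 in RC. It fell by 0.94 from PC to RC (SE 0.0929, adjusted p = 1.91e-06) and its RC against CC value was -0.73 (SE 0.0926, adjusted p = 0.000132). From TC to PC it fell by 0.36 (adjusted p = 0.0129), a call lost without PC replicate 2 (adjusted p = 0.0613).

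JUNB lies at chromosome 19, 12791486 to 12793315, on the plus strand. It measured 79.5, 112 and 118 CPM in CC, 84.3, 88.7 and 99.9 CPM in TC, 61.4, 58.1 and 63.5 CPM in PC, and 86.0, 72.4 and 83.7 CPM in RC. The PC libraries lay below all others. JUNB fell by 0.76 in PC against CC (SE 0.13, adjusted p = 0.000218) and by 0.58 from TC to PC (SE 0.13, adjusted p = 0.00691). In TC against CC its value was -0.18 (adjusted p = 0.225), and without CC replicate 1 it was -0.34 (adjusted p = 0.00662). From PC to RC it rose by 0.40 (SE 0.13, adjusted p = 0.0149), a call lost without PC replicate 2 (adjusted p = 0.0518) or RC replicate 1 (0.0577). Its RC against CC value of -0.36 (SE 0.129, adjusted p = 0.0473) kept its call in 5 of 19 alternatives. Its values without CC replicate 3 were -0.07 in TC, -0.64 in PC (adjusted p = 0.00103) and -0.24 in RC (adjusted p = 0.157). Exons of HOOK2 on the opposite strand cover 14.2% of JUNB, and the strand setting of the counting was not stated.

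IER2 lies at chromosome 19, 13150411 to 13154911, on the plus strand. It measured 56.3, 71.7 and 145 CPM in CC and 53.5 to 72.5 CPM in the 9 libraries of the other groups. All groups overlapped CC. IER2 passed no comparison, with log2 fold changes from -0.61 (RC vs CC, adjusted p = 0.082) to -0.04 (RC vs PC, adjusted p = 0.902). With CC replicate 3 left out its values were 0.09 in TC (adjusted p = 0.455), -0.05 in PC (adjusted p = 0.702) and -0.09 in RC (adjusted p = 0.512). Leaving out CC replicate 1 instead, IER2 was lower in TC (-0.67, adjusted p = 0.0176), PC (-0.82, adjusted p = 0.00595) and RC (-0.86, adjusted p = 0.0126), and leaving out CC replicate 2 it was lower in PC (adjusted p = 0.039) and RC (adjusted p = 0.0499). A pair of long noncoding RNAs on the opposite strand covers 30.7% and 21.5% of its exons. IER3, at chromosome 6, 30743199 to 30744548, on the minus strand, had 0 to 7 counts per library and was not tested. The table lists 5 numbered copies of IER3, and with them it had 0 to 17 counts per library, the highest in CC replicate 3. How reads that fit several places were counted was not stated, so the level of IER3 is uncertain, while the other 9 members have 0 numbered copies.

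**Figure D2:**
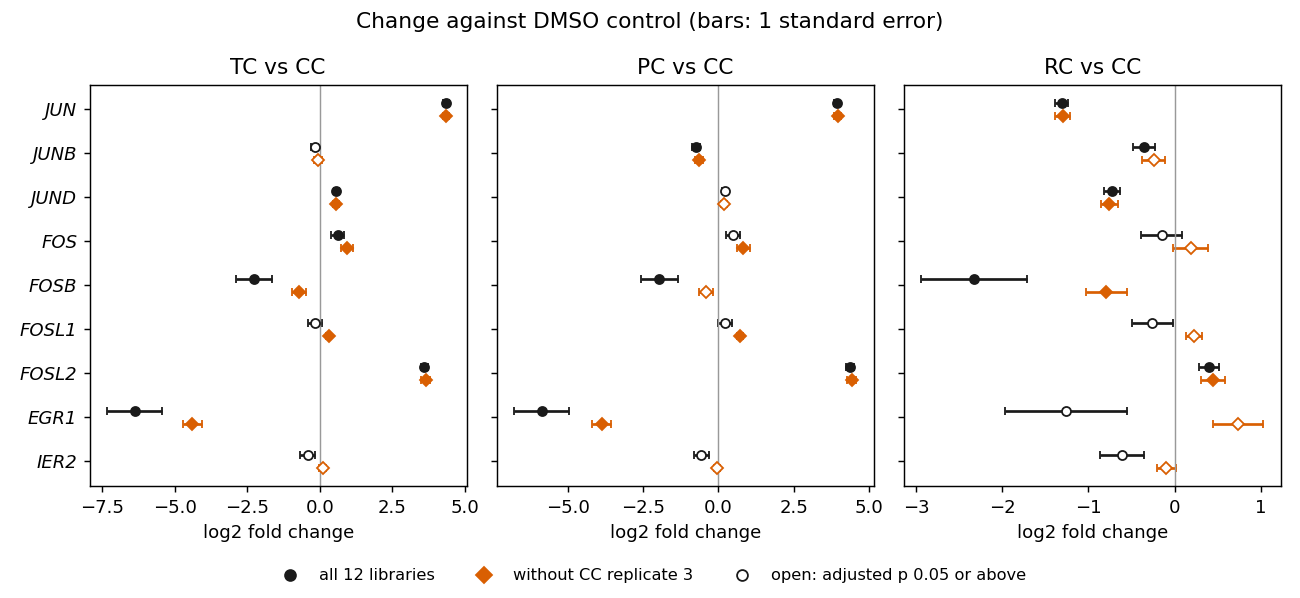
Fitted log2 fold change of the 9 tested members in TC, PC and RC against CC, with bars of 1 standard error; circles use all 12 libraries, diamonds leave out CC replicate 3, and open symbols have an adjusted p of 0.05 or above. JUN and FOSL2 keep their place with and without that library, while EGR1 moves towards 0 in TC and PC, and FOSB in TC, PC and RC. FOSL1 and IER2 cross 0 in TC, and EGR1, FOS and FOSL1 cross 0 in RC.

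In TC against CC, 4 of 9 tested members were higher and 2 were lower, where 33.2% of all tested genes were higher and 34.7% lower. Beyond 1.5-fold, 2 members were higher (JUN and FOSL2) and 2 lower (EGR1 and FOSB), against 16.1% and 19.3% of all genes. In PC against CC, 2 members were higher and 3 lower (background 33.2% and 35.9%), and the same 4 genes passed beyond 1.5-fold (background 17.2% higher and 19.9% lower). The shares over 9 genes lay near these backgrounds, so the numbers of calls are no result about the members as a set. The sizes of the changes of single members are given as descriptions, and their rank among all tested genes was not examined. The median log2 fold change of the members was -0.18 in TC and 0.21 in PC, beside -0.02 and -0.04 over all tested genes. Without CC replicate 3, 5 members were higher and 2 lower in TC (background 34.1% and 34.7%), and 4 higher and 2 lower in PC (background 34.3% and 35.8%).

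In RC against CC, 1 member was higher and 4 were lower, where 18.2% of all genes were higher and 19.1% lower. Beyond 1.5-fold, 0 members were higher and 1, JUN, was lower, against 1.35% and 2.52%. Without CC replicate 3, 1 member was higher and 3 lower (background 21.2% and 20.3%). In PC against TC, 1 member was higher and 3 lower (background 12.2% and 12.5%), and 0 passed beyond 1.5-fold in either direction (background 2.33% and 1.15%). With CC replicate 3 left out, 2 were higher and 3 lower in PC against TC (background 15.5% and 15.5%). In RC against PC, 2 members were higher and 4 lower (background 35.7% and 34.2%). Beyond 1.5-fold, EGR1 was higher and JUN, FOSL2 and JUND were lower (background 20.2% and 18.5%). With CC replicate 3 left out, 2 members were higher and 5 lower in RC against PC (background 36.9% and 36.1%). The median of the members was -0.61 in RC against CC, -0.12 in PC against TC and -0.48 in RC against PC, beside 0.00 to 0.02 over all genes. TC, PC and RC share the CC libraries, and the PC libraries enter 3 of the 5 comparisons.

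Levels were set side by side between genes only as CPM per kilobase (kb) of exon. In CC the order was JUNB (56.5 ± 11.4), JUND (54.3 ± 4.67), FOSL1 (30.0 ± 14.7), IER2 (29.6 ± 15.4), EGR1 (23.2 ± 30.1), JUN (12.9 ± 0.693), FOS (12.5 ± 5.37), FOSL2 (2.73 ± 0.344) and FOSB (1.28 ± 1.45), each as mean ± SD (n = 3). In that order only JUND and FOSL1, and FOS and FOSL2, were neighbours whose mean ± SD ranges did not meet. In TC JUN stood first at 263 ± 4.38 CPM per kb, then JUND at 80.5 ± 6.01, JUNB at 49.7 ± 4.4 and FOSL2 at 33.2 ± 5.35, while EGR1 (0.270 ± 0.0915) and FOSB (0.265 ± 0.0708) stood last within each other's spread. In PC JUN (198 ± 12.3) was followed by JUND (62.6 ± 5.16) and FOSL2 (57.0 ± 1.95), whose ranges met. In RC the order began with JUNB (44.1 ± 3.96), JUND (32.7 ± 3.06) and FOSL1 (25.1 ± 2.27), and JUN was at 5.19 ± 0.517.

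The make-up of the AP-1 transcripts changed with these levels. Summed over the 7 FOS and JUN genes, the level was 170 ± 29.8 CPM per kb in CC, 472 ± 18.3 in TC, 404 ± 14.4 in PC and 122 ± 9.92 in RC (SD, n = 3). JUN made up 7.76% ± 1.62 of that sum in CC, 55.7% ± 1.94 in TC, 49.1% ± 1.67 in PC and 4.26% ± 0.436 in RC. Within the JUN family its share was 10.6% ± 1.74 in CC, 66.9% ± 1.72 in TC, 67.4% ± 2.35 in PC and 6.35% ± 0.616 in RC. JUNB and JUND together made up the rest, and JUNB alone went from 45.4% ± 4.87 in CC to 12.6% ± 0.749 in TC. Within the FOS family FOSL1 held 64.1% ± 7.98 in CC and 62.4% ± 1.14 in RC, against 33.6% ± 0.748 in TC and 31.9% ± 0.890 in PC. FOSL2 held 6.47% ± 2.10 in CC, 41.9% ± 3.13 in TC, 51.8% ± 0.565 in PC and 8.99% ± 0.774 in RC. Neither family's leading transcript was thus the same in CC and RC as in TC and PC, and no library of one pair of groups reached the shares of the other pair for JUN, FOSL1 or FOSL2. These are shares of RNA, and protein was not measured here.

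**Figure D3:**
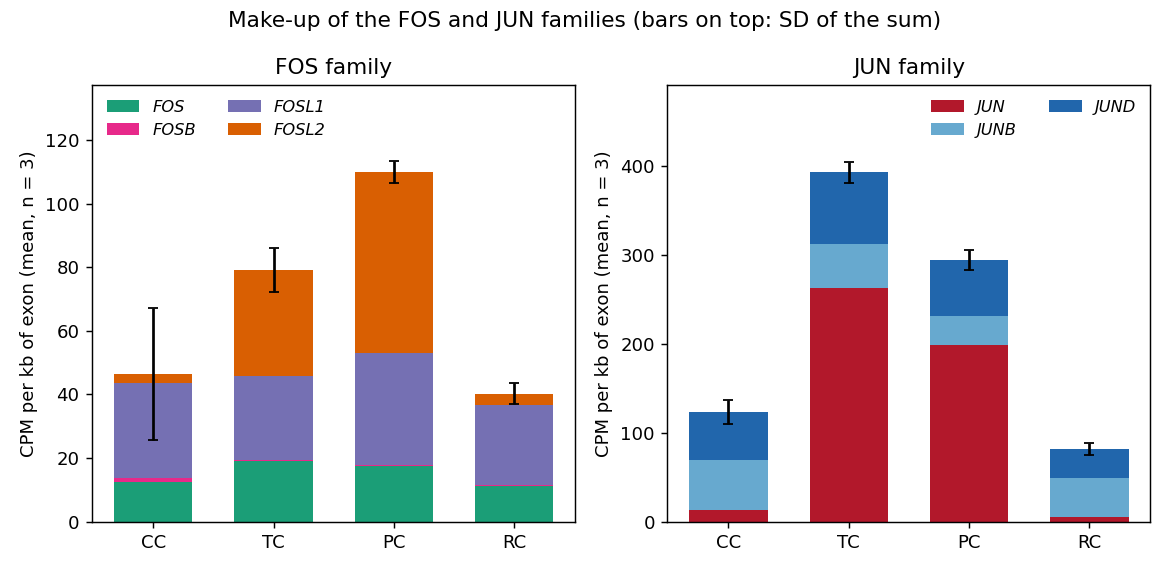
Stacked mean CPM per kb of exon (n = 3) of the FOS family genes (left) and the JUN family genes (right) in each group, with the SD of the sum; the vertical scales differ. FOSL2 takes the largest part of the FOS family in TC and PC (41.9% and 51.8%), and JUN takes 66.9% and 67.4% of the JUN family there.

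The spread between replicates differed among the members. The biological coefficient of variation was 0.59 for EGR1 and 0.509 for FOSB, above those of 97.3% and 96.5% of the tested genes, and 0.0705 for JUN, above 12% of them. The median over the tested members was 0.203, beside 0.123 over all tested genes. Leaving out CC replicate 3, the coefficient was 0.242 for EGR1, 0.212 for FOSB and 0.0679 for JUN, and the medians were 0.102 over the tested members and 0.107 over all tested genes. EGR1 and FOSB were then above 80.3% and 74.2% of the tested genes.

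AP-1 dimer partners, the ATF, BATF, JDP2 and MAF genes whose proteins pair with JUN or FOS proteins, were called in both directions in TC. Of 12 tested, 5 were higher and 4 lower in TC (all tested genes, 33.2% and 34.7%), 5 higher and 3 lower in PC (33.2% and 35.9%), and 0 higher and 6 lower in RC (18.2% and 19.1%). With CC replicate 3 left out, 7 were higher and 4 lower in TC (all tested genes, 34.1% and 34.7%). In PC 7 were then higher and 4 lower (34.3% and 35.8%), and in RC 0 higher and 4 lower (21.2% and 20.3%). The named genes kept their TC calls, with ATF3 at 3.53, MAF at 2.54, MAFF at -1.66 and ATF4 at -1.59. ATF3, a stress-induced repressor or partner of JUN, rose from 30.9 ± 12.6 CPM in CC to 275 ± 10.3 in TC and 285 ± 8.49 in PC (log2 fold changes 3.15 and 3.20, adjusted p = 9.59e-08 and 7.81e-08). MAF, a large MAF factor with its own activation domain, rose from 52.7 ± 4.64 CPM in CC to 320 ± 28.2 in TC and 615 ± 23.7 in PC, so that it too was higher in PC than in TC (0.94, adjusted p = 8.01e-06). MAFF, a small MAF factor without one, fell from 119 ± 41.8 to 30.0 ± 1.47 CPM in TC (-1.99, adjusted p = 1.2e-06). ATF4, the effector of the integrated stress response, fell from 639 ± 120 to 190 ± 5.99 CPM in TC (-1.75, adjusted p = 1.41e-07) and was at 336 ± 48.9 CPM in RC.

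Among other immediate early genes, 8 of 23 tested were higher and 9 lower in TC (all tested genes, 33.2% and 34.7%), 6 higher and 10 lower in PC (33.2% and 35.9%), and 0 higher and 9 lower in RC (18.2% and 19.1%). With CC replicate 3 left out, 11 were higher and 8 lower in TC (all tested genes, 34.1% and 34.7%). In PC 8 were then higher and 9 lower (34.3% and 35.8%), and in RC 1 higher and 8 lower (21.2% and 20.3%). With all libraries, the shares in TC lay near those of all genes. KLF2, a zinc finger factor, rose from 2.26 ± 0.797 CPM in CC to 34.2 ± 10.5 in TC (3.91, adjusted p = 6.46e-08), and HBEGF, a ligand of the EGF receptor, from 11.0 ± 3.43 to 39.4 ± 10.4 CPM (1.84, adjusted p = 1.41e-05). EGR3, a relative of EGR1, was at 64.9 ± 50.2 CPM in CC and fell to 7.92 ± 0.899 in TC (-3.04, adjusted p = 3.23e-05) and 1.52 ± 0.292 in PC (-5.41, adjusted p = 7.35e-07). EGR3 was lower in PC than in TC (-2.38, adjusted p = 0.0027), whereas the EGR1 value between these groups was 0.49 (adjusted p = 0.779). Without CC replicate 3 these values were -2.37 for EGR3 (adjusted p = 1.15e-06) and 0.50 for EGR1 (SE 0.339, adjusted p = 0.289). NR4A1, an orphan nuclear receptor, fell from 94.9 ± 70.4 to 18.8 ± 1.12 CPM in TC (-2.34, adjusted p = 0.000147). In CC, EGR3 and NR4A1 shared the high level of replicate 3, at 123 and 175 CPM. Without that library EGR3 was at -2.18 in TC (adjusted p = 5.93e-08) and -4.55 in PC (adjusted p = 7.95e-10), and NR4A1 at -1.54 in TC (adjusted p = 1.08e-06). KLF2 and HBEGF were then at 4.22 and 2.07 in TC.

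The genes that act on the members included kinases of the JNK branch, serum response factor and its cofactors, ETS factors, CREB1 and its kinases, and ubiquitin ligases of JUN. Of 17 tested, 11 were higher and 2 lower in TC (all tested genes, 33.2% and 34.7%), 10 higher and 3 lower in PC (33.2% and 35.9%), and 4 higher and 1 lower in RC (18.2% and 19.1%). In the fit without CC replicate 3, 12 were higher and 2 lower in TC (all tested genes, 34.1% and 34.7%). In PC 12 were then higher and 3 lower (34.3% and 35.8%). In RC 9 were higher and 0 lower (21.2% and 20.3%), so the RC counts depended on that library. MRTFA, a cofactor of serum response factor, rose from 23.6 ± 2.50 CPM in CC to 69.2 ± 5.65 in TC (1.55, adjusted p = 2.51e-08). FBXW7, the substrate receptor of a ligase that degrades JUN, rose from 11.8 ± 2.48 to 33.2 ± 4.58 CPM in TC (1.49, adjusted p = 1.27e-06) and to 51.7 ± 2.99 CPM in PC. RPS6KA5, the kinase MSK1 that phosphorylates CREB1 and histone H3 at immediate early genes, fell from 21.6 ± 2.74 to 9.60 ± 0.520 CPM in TC (-1.17, adjusted p = 3.47e-07) and stood at 37.1 ± 1.68 CPM in RC, above CC (0.78, adjusted p = 8.77e-05). The TC values without CC replicate 3 were 1.61 for MRTFA, 1.66 for FBXW7 and -1.06 for RPS6KA5.

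Of 15 genes known as AP-1 targets, 11 were tested, of which 4 were higher and 4 lower in TC (all tested genes, 33.2% and 34.7%), 6 higher and 5 lower in PC (33.2% and 35.9%), and 2 higher and 2 lower in RC (18.2% and 19.1%). The shares in TC lay near those of all genes. The counts were the same without CC replicate 3, where 34.1% of all tested genes were higher and 34.7% lower in TC. In that fit the shares of all genes were 34.3% and 35.8% in PC, and 21.2% and 20.3% in RC. MMP1, MMP9, PLAU and IL6 did not reach the count minimum. AXL, a receptor tyrosine kinase, rose from 6.96 ± 0.590 CPM in CC to 37.9 ± 10.3 in TC (2.45, adjusted p = 4.26e-07) and 112 ± 20.1 in PC (4.01, adjusted p = 8.74e-09), and was still above CC in RC at 15.6 ± 2.51 CPM (1.16, adjusted p = 0.000904). VEGFA, an angiogenic growth factor, rose from 88.3 ± 41.2 to 218 ± 45.8 CPM in TC (1.30, adjusted p = 0.000916). HMGA1, an architectural chromatin protein, fell from 723 ± 33.2 to 142 ± 6.43 CPM in TC (-2.35, adjusted p = 3.68e-11). CCND1, which encodes cyclin D1, measured 192 to 308 CPM in CC and fell to 74.0 ± 4.08 CPM in TC (-1.76, adjusted p = 2.71e-07). The TC values without CC replicate 3 were 2.49 for AXL, 1.75 for VEGFA, -2.38 for HMGA1 and -1.58 for CCND1.

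**Figure D4:**
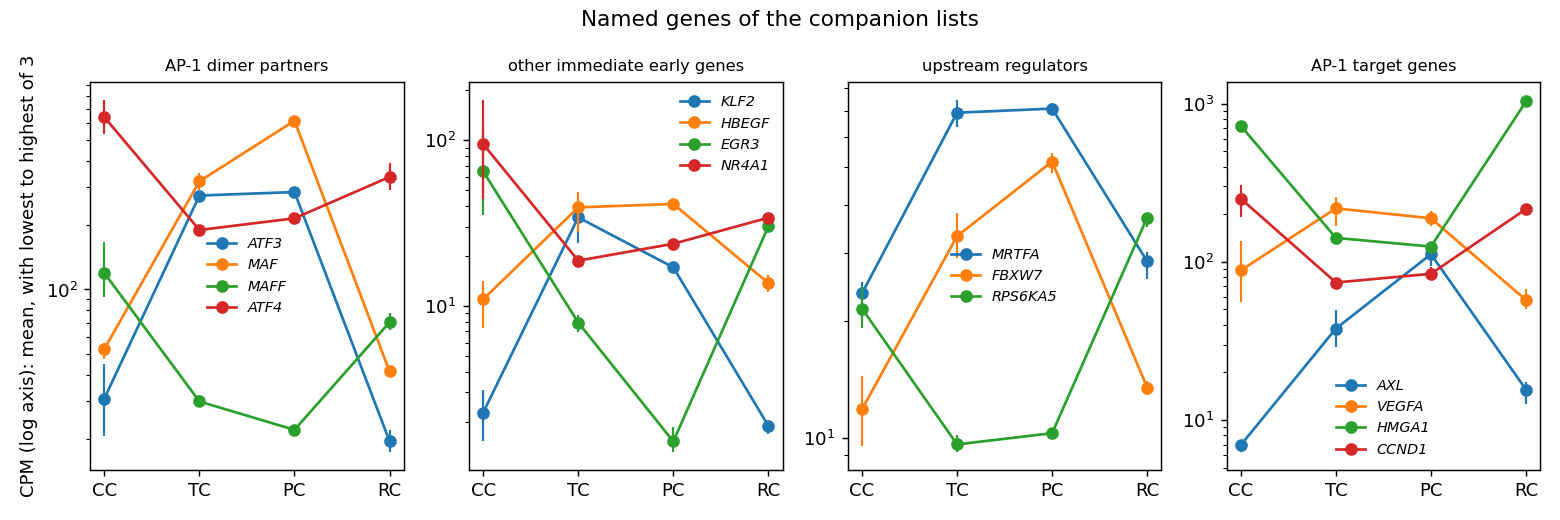
Mean CPM on a log axis in the 4 groups for the 15 named genes of the companion lists, with bars from the lowest to the highest of 3 libraries; lines only join the groups of a gene. MAF, FBXW7 and AXL stand higher in PC than in TC, as FOSL2 does, and EGR3 and KLF2 stand lower.

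Most of the melanocyte lineage markers, but not all, were higher in TC and PC, as JUN and FOSL2 were. Of the 7 markers, 5 were higher and 1 lower in TC against CC (all tested genes, 33.2% and 34.7%), and 5 higher and 1 lower in PC (33.2% and 35.9%). In the fit without CC replicate 3, 5 were higher and 1 lower in TC (all tested genes, 34.1% and 34.7%). In PC 5 were then higher and 0 lower (34.3% and 35.8%). The summed level of the 7 markers was 1661 to 1889 CPM in CC, 7076 to 10285 in TC, 3484 to 5090 in PC and 1526 to 1592 in RC. No marker was at 0. Most of the TC and PC sums came from DCT, which averaged 6452 CPM in TC and 2601 in PC. DCT averaged 407 CPM in CC and 421 in RC. S100B was the marker lower in TC (-0.91, adjusted p = 2.17e-06). MITF was not called in TC (-0.17, adjusted p = 0.558) and was the marker lower in PC (-0.71, adjusted p = 0.023). The summed keratinocyte markers reached at most 2.64 CPM (PC), from KRT14, while KRT5 had 1 count in all libraries together and DSG3 was at 0 in every library. The summed endothelial markers stayed at or below 5.23 CPM, nearly all from VWF, with CDH5 at 0 in every library and PECAM1 at no more than 1 count. PTPRC, the pan-leukocyte marker CD45, was at 0.554 ± 0.0953 CPM in CC and 0.606 ± 0.148 in RC, and lower at 0.0421 ± 0.0382 in TC (-3.55, adjusted p = 0.000115) and 0.140 ± 0.0302 in PC (-1.96, adjusted p = 0.00294). The part of these markers in the levels of the members was not tested.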

How the data were processed

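RNA was measured in 12 libraries of A375 cells, 3 in each of 4 groups taken from the labels. The deposited values are raw read counts per gene. The authors ran fastp 0.20.1 for trimming, HISAT2 2.2.1 for alignment to GRCh38.p13 and htseq-count (HTSeq 0.13.5) for exon counts on NCBI gene models. Neither the strand setting nor the treatment of reads with several alignments was stated.

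All 12 libraries entered a single quasi-likelihood fit of the 4 group means (edgeR 4.0.16, R 4.3.3), with TMM factors of 0.965 to 1.02 and 8 residual degrees of freedom. Genes with a mean scaled count of at least 10 were tested. Calls used glmQLFTest (two-sided) and, beyond 1.5-fold, glmTreat, both at 0.05 after Benjamini-Hochberg adjustment over all 15916 tested genes. Levels are CPM on TMM-scaled library sizes as mean ± SD. Standard errors (SE) were calculated as the absolute log2 fold change over the square root of the F statistic of its glmQLFTest. Alternatives were DESeq2 1.42.0, its size factors, library totals, a summed count of at least 2, only the groups compared, a replicate block, each library left out, and numbered copies summed. On data simulated for TC vs CC, 191 of the 200 genes set to change 4-fold were called, as were 8 of 15716 others. The simulated counts were drawn from the spread of the same fit, with far fewer genes changed than were called in the data. These numbers check the code and do not carry over to the members. Within groups, no pair of libraries agreed within sampling noise.

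Positions, exon lengths and overlaps came from GENCODE v44 by symbol, which is not the counting annotation, and promoters from RefSeq. All 10 members were named. From each companion list, the named genes were the 2 largest rises and 2 largest falls in TC vs CC among genes called beyond 1.5-fold with a mean scaled count of at least 100, and further genes appear for what was not tested or for markers. The members and lists were chosen with earlier results of these data known. The list of leukocyte markers is reported here only for PTPRC.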

Additional observations from a re-analysis of the deposited data

How the results depend on the processing

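Under the alternatives, 788 values of single members kept their direction and side of the threshold, 31 lost a call, 20 gained one and 6 reversed. The calls for JUN in all 5 comparisons, and for FOSL2 in all but RC vs CC, held in all 19 alternatives. Under DESeq2, 2 members passed beyond 1.5-fold in TC vs CC and 2 in PC vs CC, in place of 4 each, since it gave EGR1 and FOSB no adjusted p. Counts of members under the alternatives describe how calls held and are no result about the members as a set. With all libraries, 1.35% of all tested genes were higher and 2.52% lower beyond 1.5-fold in RC vs CC. In PC vs TC these shares were 2.33% and 1.15%. Without a fold threshold, 18.2% were higher and 19.1% lower in RC vs CC. With 1 library left out, members called beyond 1.5-fold numbered 1 to 2 in RC vs CC and 0 to 1 in PC vs TC. In those fits, members called in RC vs CC numbered 3 to 6. Over the same fits, the log2 fold change of FOSL1 ran from -0.40 to 0.31 in TC vs CC and from -0.48 to 0.23 in RC vs CC, and that of IER2 from -0.67 to 0.0935 in TC vs CC and from -0.12 to 0.0277 in RC vs PC. FOS in RC vs CC ran from -0.44 to 0.18 and EGR1 in RC vs CC from -1.73 to 0.74. The positive values arose without CC replicate 3, except for IER2 in RC vs PC, without RC replicate 2.

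Whether replicate numbers pair the libraries was not settled, since libraries of different numbers were not compared in the same way. Deviations of same-numbered libraries correlated at -0.0373 to 0.155, over 0.1 in 2 of 18 pairs. Those 2 were TC with PC in replicate 1 (0.155) and in replicate 3 (0.124). With the replicate number as a block, 6 members were called in TC vs CC, 5 in PC vs CC and 5 in RC vs CC. The block gave 4 in PC vs TC and 6 in RC vs PC, and all 5 numbers were the same without it. Without the block, 33.2% of all tested genes were higher and 34.7% lower in TC vs CC. The shares were 33.2% and 35.9% in PC vs CC, and 18.2% and 19.1% in RC vs CC. They were 12.2% and 12.5% in PC vs TC, and 35.7% and 34.2% in RC vs PC. The unchanged counts are thus no result about the members as a set. Beyond 1.5-fold the block gave 3 members in place of 4 in PC vs CC and the same number in the other comparisons, and EGR1 in RC vs CC was at -0.57 in place of -1.26, not called in either fit.

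Depth limits IER3, at 7 counts or fewer in every library. A fit without 1 library left 2 libraries in its group. Summing numbered copies left IER3 below the count minimum.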

Other observations

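The genes whose pattern was most like that of the member with the largest rise and the member with the largest fall were found by Pearson correlation of log2 CPM over the 12 libraries. The points share 4 groups, and the values are descriptions. For JUN the 3 closest genes were SEMA3E (r = 0.998), which encodes a secreted guidance protein, C19orf71 (0.997) and GRIK2 (0.997), a glutamate receptor subunit, among 993 genes over 0.95. SEMA3E averaged 47.8 CPM in CC, 316 in TC, 290 in PC and 25.2 in RC, so that it too ended below its CC level. For EGR1 the closest were CDK5R1 (0.990), an activator of the kinase CDK5, ZCCHC8 (0.984) and WDR43 (0.982), a ribosome biogenesis factor, among 243 genes over 0.95. CDK5R1 averaged 27.0 CPM in CC, 9.24 in TC, 10.3 in PC and 21.5 in RC.

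In a fit of all genes with a summed count of at least 2, IER3 had a log2 fold change of -1.2 in TC vs CC (SE 1.12, edgeR adjusted p = 0.43) and of -2.84 in PC vs CC (SE 1.32, adjusted p = 0.0994), on 0 to 7 counts per library.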
